A study of Mus musculus with 4 samples.

Results

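Tmcc2, Ypel4, Phospho1, F830116E18Rik, Tcp11l2, Ankrd43 and 1700023B02Rik are 7 genes, picked as poorly known, that were followed through the maturation of mouse red cell precursors. They were taken by symbol from the 19564 genes listed, selected on their RPKM in the same 4 libraries, which was much higher, or shifted, in the more mature cells. All 7 were in the files and passed the filter of 1 RPKM. Since the values below chose them, their differences are given as a description and carry no test. Erythroblasts came from fetal livers of mouse embryos at day 14.5, were stained for TER119, which is gained as red cells mature, and for CD71, the transferrin receptor, which is gained and then lost, and were sorted into 4 populations. R2 holds proerythroblasts with early basophilic cells, R3 early and late basophilic cells, R4 mostly polychromatophilic and orthochromatophilic cells, and R5 the latest orthochromatophilic cells together with reticulocytes, which have expelled the nucleus. The 4 groups share the tissue and the age, none was treated or cultured, and neither the strain nor the number of embryos pooled is given in the sources used here. Each population gave 1 library of polyadenylated RNA, so no difference has a replicate check. Values are RPKM, reads scaled to gene length and library size, as the authors deposited them.

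Terminal erythropoiesis is the last stretch of red cell formation. The cells divide a few more times, fill with hemoglobin, condense and expel the nucleus, clear their organelles and rebuild the plasma membrane around a spectrin skeleton. Most transcripts are shut down meanwhile, and a small set, led by the globins, takes over the RNA pool. In bulk RNA, fewer cells of a type and less RNA per cell cannot be told apart.

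The steps between values of genes with few countable bases implied between 20724315 reads (R5) and 27419797 (R4). Between 6531 genes (R4) and 9761 (R2) reached 1 RPKM, and 9942 did so in some population. The globin share of all RPKM ran from 5.52% (R2) to 81.9% (R5), which lowers the RPKM of every other gene. Hba-a1 and Hba-a2 were listed with the same values, and both were counted in this share. The CD71 gene Tfrc had 52.1 RPKM (R2), 133 (R3), 74.4 (R4) and 32.8 (R5). Markers of other blood and liver cells moved as well. All 9 granulocyte markers in the files, of 10 listed, were at least 2-fold lower in R4 than in R2, as were 79.8% of all genes, and together they summed to 6025 RPKM (R2), 418.5 (R3), 231.7 (R4) and 462.7 (R5). The 8 macrophage markers summed to between 20.3 RPKM in R4 and 89.4 in R2, the 8 megakaryocyte markers to between 24.4 in R4 and 72.4 in R5, and the 8 hepatocyte markers to between 182.9 in R4 and 536.2 in R3. These sums are of the values as deposited. Median scaling, used below, scales each library by the median of gene ratios. With it all 9 granulocyte markers stayed at least 2-fold lower in R4 than in R2, where 24.2% of all genes were. All 8 hepatocyte markers were then at least 2-fold higher, where 11.6% of all genes were, against 0 as deposited. Of the 8 megakaryocyte markers 2 were higher, and of the 7 macrophage markers with at least 1 RPKM 0 were. The part of these cells in the results below was not tested.

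Not every one of the 7 is unknown, since RefSeq's table for GRCm38.p6 lists 3 of the symbols as older names. F830116E18Rik is Hbq1b, a theta-globin gene that lies between the alpha-globin genes Hba-a1 and Hba-a2. Ankrd43 is Sowaha, a gene for an ankyrin repeat protein. 1700023B02Rik is Cir1, which encodes a corepressor that binds the Notch pathway factor RBPJ. The other 4 symbols are current. Phospho1, Hbq1b and Sowaha, 3 of the 7, lie on chromosome 11, which holds 8.79% of the 9827 matched genes with at least 1 RPKM. A further pair, Ypel4 and Cir1, lies on chromosome 2, which holds 7.97% of them.

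In R4, 6 of the 7 genes were at least 2-fold higher than in R2, where 3.22% of all 9942 genes with at least 1 RPKM were, and the same 6 were in R5 against R2, where 2.74% were. The exception was 1700023B02Rik. A gene was called higher at a log2 ratio of RPKM + 1 of at least 1, a scale that understates changes of low genes. By the first 2-fold step, onset came in R3. Those 6 genes were already at least 2-fold higher in R3 than in R2, against 3.81% of all genes. By the 50% mark, given below, onset came in R4 for 5 of them. In R4 against R3, 5 of the 7 were at least 2-fold higher, where 0.493% of all genes (49) were. The same 5 reached 50% of their highest level only in R4, as did 0.576% of the 8854 genes with a 2-fold range. For a gene highest in R4, as these 5 were, that nearly repeats the 2-fold call in R4 against R3. The other 2 of the 7 reached 50% in R3, as did 4.85% of those 8854. R4 was the highest population for 6 of the 7, and for 2.44% of those genes. R5 was the highest for F830116E18Rik alone, and for 1.22% of them. In R5 against R4, 0 of the 7 were at least 2-fold higher, where 3.96% of all genes were, and 3 were lower, where 0.604% were. These counts are of the values as deposited, and the shares over all genes depend on the scaling. With median scaling all 7 were at least 2-fold higher in R4 than in R3, where 4.26% of all genes were. All 7 were then highest in R4, as were 23.9% of the 4200 genes with a 2-fold range, and first reached 50% of that level there, as did 11.4%.

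**Figure D1:**
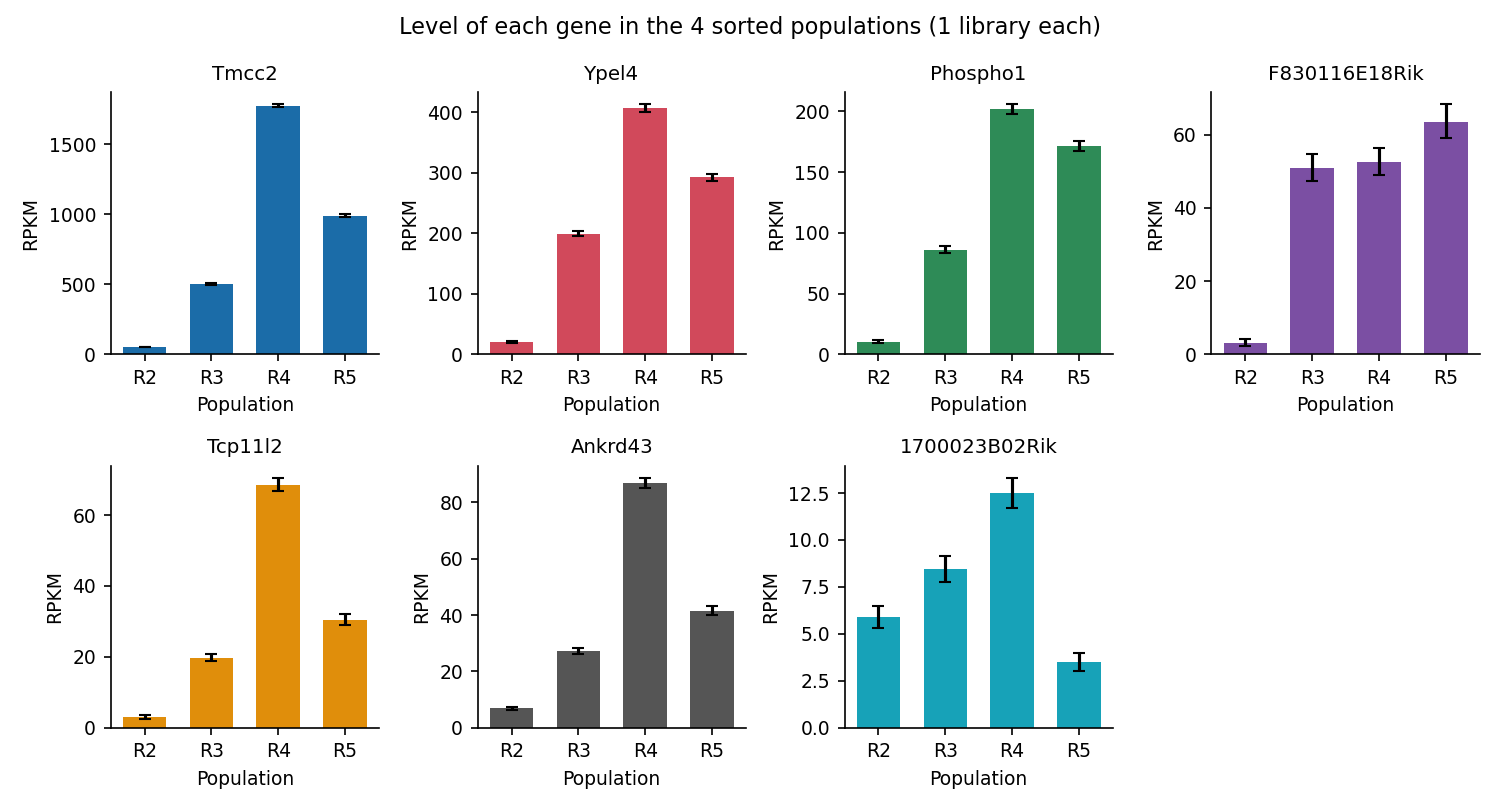
RPKM (vertical axis, from 0) of each of the 7 genes in R2, R3, R4 and R5 (horizontal axis), 1 library per population, with bars of 95% counting error. R4 is the highest bar for 6 genes, and for F830116E18Rik the R3 and R4 bars, 50.9 and 52.7 RPKM, are close and R5 is the highest at 63.6.

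Tmcc2 was the most abundant of the 7. It encodes a coiled-coil membrane protein of the endoplasmic reticulum, studied mainly in the brain, where human TMCC2 binds apolipoprotein E. Tmcc2 had 52.8 RPKM (R2), 503 (R3), 1776 (R4) and 991 (R5). It was the 1346th most abundant of 19564 genes at R2, and was 60th at R3, 10th at R4 and 19th at R5. Its R4 level stood beside that of Alas2, the erythroid enzyme that starts heme synthesis, at 1797 RPKM. R4 was 33.6-fold higher than R2 (95% counting interval 32.5 to 34.8), the second highest log2 ratio of all genes in that comparison, at 5.05. R3 against R2 gave 9.53-fold (9.20 to 9.88), and R4 against R3 3.53-fold (3.49 to 3.57). In R5 the level was 55.8% of that in R4. No 2 populations had overlapping counting intervals. These intervals take the shortest of the 3 annotated coding transcripts, of 2769 bases, and cover counting error only, since reads without molecular tags are not independent molecules and spread between embryos was not measured.

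RefSeq gives 3 start sites for Tmcc2, and the one farthest inside the gene is shown because the 250 bases before it hold GATA motifs, the letters bound by GATA1. Capitals mark AGATAG at -52 to -47 and TTATCT, the reverse complement of AGATAA, at -33 to -28 from the start, in chr1:132367949-132368198 of GRCm38.p6, minus strand.
Tmcc2: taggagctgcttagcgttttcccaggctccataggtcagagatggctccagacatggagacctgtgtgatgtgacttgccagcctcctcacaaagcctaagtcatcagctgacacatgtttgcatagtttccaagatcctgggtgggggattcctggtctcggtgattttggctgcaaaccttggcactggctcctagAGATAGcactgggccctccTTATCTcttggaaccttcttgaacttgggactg
The windows at the other two starts held no match to any motif searched. Which start these cells use was not measured, since the files give 1 value per gene.

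Ypel4 ranked next. It belongs to the Yippee family of small zinc-binding proteins, and mice that lack it have defects of the red cell membrane. Ypel4 had 19.8 RPKM (R2), 199 (R3), 407 (R4) and 293 (R5), and so was 45th among all genes in R4. R3 was 10.1-fold higher than R2 (9.34 to 10.9), R4 2.05-fold higher than R3 (1.99 to 2.10), and R5 at 71.9% of R4. Its R3 level was 48.9% of the R4 level, just short of the 50% mark.

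Phospho1 encodes a phosphatase that frees phosphate from phosphocholine and phosphoethanolamine, known from bone mineralization and, in mouse erythroblasts, from the last steps of differentiation. It had 10.6 RPKM (R2), 86.1 (R3), 202 (R4) and 172 (R5). R4 was 19.1-fold higher than R2 (17.4 to 21.01), and R3 already 8.16-fold higher (7.41 to 8.996). Of the 6 genes that were highest in R4, Phospho1 kept the largest share of that level in R5, 85.1%. Its R5 and R4 counting intervals, 167.7 to 175.9 and 197.9 to 205.6 RPKM, did not overlap.

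The windows before Ypel4 and Phospho1 are shown because each holds an NF-E2-type motif, TGACTCA, in capitals, which is also the letters of an AP-1 site. It lies at -154 to -148 in Ypel4 (GRCm38.p6, chr2:84733954-84734203, plus strand) and at -224 to -218 in Phospho1 (chr11:95824250-95824499, plus strand).
Ypel4: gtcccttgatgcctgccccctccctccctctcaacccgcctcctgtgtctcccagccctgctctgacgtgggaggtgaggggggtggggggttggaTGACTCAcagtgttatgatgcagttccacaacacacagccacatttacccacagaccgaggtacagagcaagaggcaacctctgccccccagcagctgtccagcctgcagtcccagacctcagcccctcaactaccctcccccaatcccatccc
Phospho1: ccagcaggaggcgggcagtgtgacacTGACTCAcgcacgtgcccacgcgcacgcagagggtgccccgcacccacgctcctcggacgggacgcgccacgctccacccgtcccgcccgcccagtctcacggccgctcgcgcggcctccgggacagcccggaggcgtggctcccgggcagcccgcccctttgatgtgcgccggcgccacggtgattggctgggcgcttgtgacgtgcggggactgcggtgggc
Windows from 250 bases before to 50 after the start, from RefSeq, were found for 6 of the 7 genes, with 8 starts, and not for Ankrd43. On both strands, TGAGTCA or its reverse complement TGACTCA was in 2 of the 8 windows, against 5.20% of all 32851. A GATA motif (AGATAA, or AGATAG, or else TGATAA, or TGATAG) was in 1 of 8, against 29.8%, and the KLF-type motif CACACCC in 0 of 8, against 7.95%. No match overlapped another. A match says only that the letters are there.

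F830116E18Rik, the theta-globin gene Hbq1b, reached most of its highest level in R3 in the values as deposited. Theta-globins sit in the alpha-globin locus, and no part of a hemoglobin is known for them. The gene had 3.14 RPKM (R2), 50.9 (R3), 52.7 (R4) and 63.6 (R5). R3 was 16.2-fold higher than R2 (11.7 to 22.5), on an estimated 734 reads in R3 against 41 in R2. These estimates assume that all 562 bases of the transcript were counted. If fewer were, the reads would be fewer and the intervals wider. R4 against R3 gave 1.03-fold, with an interval of 0.934 to 1.14 that includes 1, so the deposited levels in these 2 populations were not told apart. That comparison moved with the scaling as well, to a log2 ratio of 0.71 with globins removed and 1.12 with median scaling, under which the gene first reached 50% of its highest level in R4. R5 against R4 gave 1.21-fold (1.09 to 1.33). Whether R5 or R4 is the highest turned with the scaling of the libraries. Its log2 ratio in R5 against R4 was 0.27 as deposited, 0.07 with globins removed and -0.10 with median scaling, beside an all-gene median of 0.27, 0.18 and 0.07.

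F830116E18Rik shares sequence with other globins. The annotated transcripts of Hbq1b and its copy Hbq1a were identical at 94.1% of 562 aligned bases, with a longest shared run of 222 bases, so reads of the copies may not have been told apart. Hbq1, the older symbol of Hbq1a, had 0.32 RPKM (R2), 4.16 (R3), 4.96 (R4) and 4.44 (R5). That was between 6.99% (R5) and 10.2% (R2) of the F830116E18Rik level. The transcript of Hba-a1 was identical at 69.5% of 512 aligned bases, with a longest shared run of 11 bases. F830116E18Rik stood at 0.0346% (R2), 0.0396% (R3), 0.0228% (R4) and 0.0208% (R5) of the Hba-a1 level. Its share of the Hba-a1 level was thus lower in R4 and R5 than in R2 and R3. Hba-a2 was listed with the same values as Hba-a1 in every population, so the deposited values do not tell these genes apart.

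Tcp11l2 and Ankrd43 were lower at every stage than Tmcc2, Ypel4 and Phospho1, and peaked in R4. Tcp11l2 is a relative of the testis gene Tcp11, and little is known of what either Tcp11l2 or Ankrd43 does in red cells. Tcp11l2 had 3.03 RPKM (R2), 19.8 (R3), 68.5 (R4) and 30.5 (R5). Ankrd43 had 6.88 RPKM (R2), 27.3 (R3), 86.8 (R4) and 41.6 (R5). Both were near 30% of their highest level in R3, with 28.8% for Tcp11l2 and 31.5% for Ankrd43, and both were at least 2-fold lower in R5 than in R4. The R5 level was 44.6% of the R4 level for Tcp11l2 and 48.0% for Ankrd43. R4 was 22.6-fold higher than R2 for Tcp11l2 (19.5 to 26.2) and 12.6-fold for Ankrd43 (11.6 to 13.7). Among all genes in R4 against R3, Tmcc2 had the 4th highest log2 ratio, Tcp11l2 the 5th and Ankrd43 the 7th. The steps of Ankrd43 were of similar size, 3.97-fold in R3 against R2 (3.63 to 4.35) and 3.18-fold in R4 against R3 (3.04 to 3.32), while those of Tcp11l2 were 6.52-fold (5.58 to 7.61) and 3.47-fold (3.27 to 3.69).

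1700023B02Rik, or Cir1, did not follow the other 6 genes. It had 5.89 RPKM (R2), 8.44 (R3), 12.5 (R4) and 3.48 (R5). R4 was 2.12-fold higher than R2 (1.88 to 2.40), which gave a log2 ratio of RPKM + 1 of 0.97, under the limit of 1. No single step upward reached 2-fold in the values as deposited. Both did after rescaling, with log2 ratios in R3 against R2 of 1.09 with globins removed and 1.14 with median scaling, and in R4 against R3 of 1.15 and 1.53 in that order. R5 was at 27.9% of R4, the sharpest drop of the 7 and the 9938th of 9942 log2 ratios in that comparison, and R5 lay below R2 with a log2 ratio of -0.62. That sign turned with scaling, to 0.40 with globins removed and 0.66 with median scaling. Genes that are not among the 7 and lay closest to it in R5 against R2 were Ensa and Parp9 at -0.62 and Zfp825 at -0.62.

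**Figure D2:**
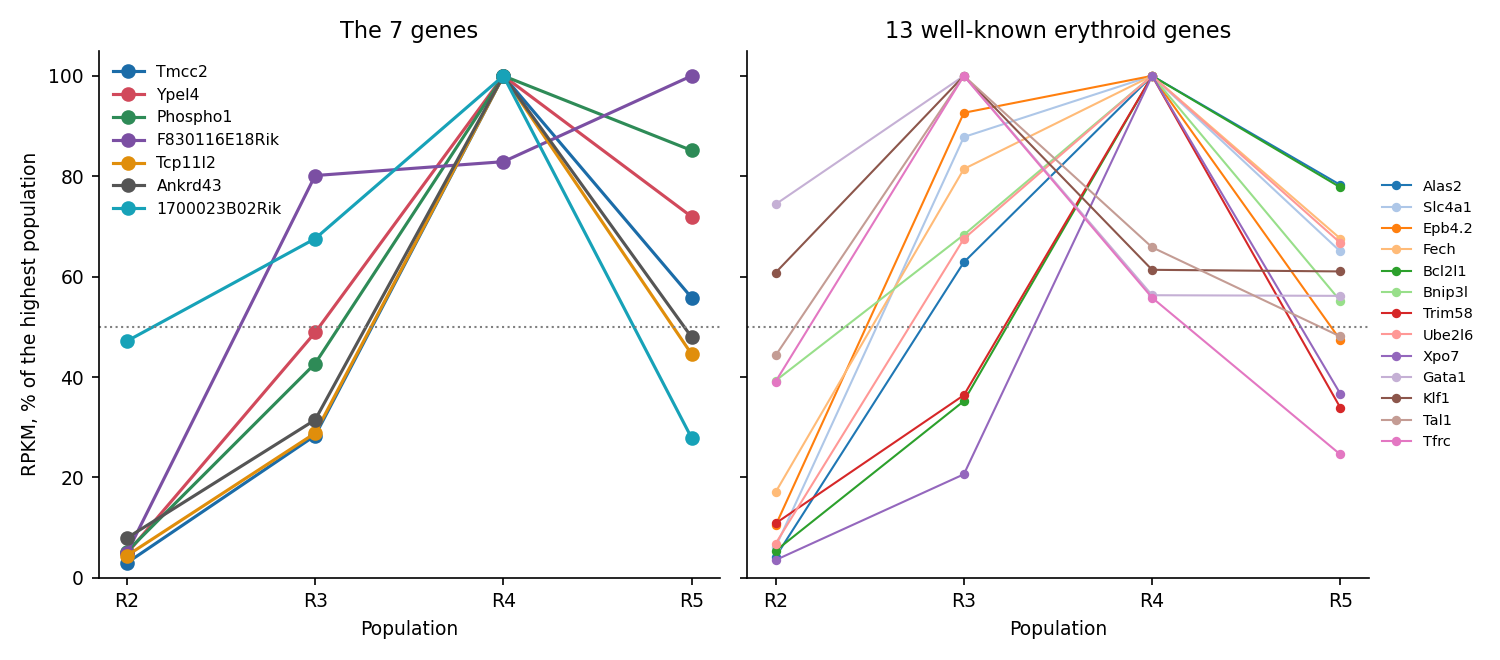
Level as a percentage of the highest population (vertical axis) in R2 to R5 (horizontal axis) for the 7 genes (left) and for 13 well-known erythroid genes (right), with a dotted line at 50%. As deposited, 5 of the 7 genes cross 50% between R3 and R4, and so do 3 of the 13 known genes, Bcl2l1, Trim58 and Xpo7.

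The shapes over the 4 populations differed in how close they were. Distances were taken between log2(RPKM + 1) profiles, each centred on its own mean. The added 1 RPKM flattens the profiles of low genes, so the distances still depend in part on level. Ypel4 and Phospho1 were the closest pair, at 0.33, followed by Tcp11l2 and Ankrd43 at 0.49. Tmcc2 was 0.64 from Ypel4, 0.66 from Phospho1, 0.92 from Tcp11l2 and 1.39 from Ankrd43. The distances of 1700023B02Rik to the other 6 were 2.34 to 3.68.

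A set of 13 well-known erythroid genes gave a scale for onset. Among these, 8 first reached 50% of their highest level in R3, 3 in R4 and 2 already in R2, and 9 were highest in R4 and 4 in R3. The transcription factor genes Gata1, Klf1 and Tal1 were highest in R3, as was Tfrc, in the values as deposited. With median scaling all 13 were highest in R4, and with globins removed 10 were, Tal1 among them, and 3 in R3. Slc4a1, the anion exchanger band 3, was at 87.8% of its R4 level in R3 as deposited. Its log2 ratio in R4 against R3 was 0.19 as deposited, 0.86 with globins removed and 1.27 with median scaling. Under median scaling Slc4a1 first reached 50% of its highest level in R4. As deposited, the 3 of the 13 that first reached 50% in R4 were Bcl2l1, Trim58 and Xpo7. Bcl2l1 is the gene of the cell death inhibitor Bcl-xL, Trim58 a ubiquitin ligase gene of late erythroblasts and Xpo7 a nuclear exporter gene. Their first 2-fold step was R3 against R2, as for Tmcc2, Ypel4, Phospho1, Tcp11l2 and Ankrd43. Bcl2l1, Trim58 and Xpo7 were highest in R4, so it nearly follows that they were at least 2-fold higher in R4 than in R3. They were the only 3 of the 13 as deposited, where 0.493% of all genes were. With median scaling 9 of the 13 were, where 4.26% of all genes were. Under that scaling 9 of the 13 first reached 50% of their highest level in R4, as did all 7 of the genes followed here and 11.4% of all genes with a 2-fold range. In the values as deposited, Tmcc2, Tcp11l2 and Ankrd43 had R3 levels of 28.3%, 28.8% and 31.5% of R4. Those of Bcl2l1, Trim58 and Xpo7 were 35.2%, 36.4% and 20.6%.

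**Figure D3:**
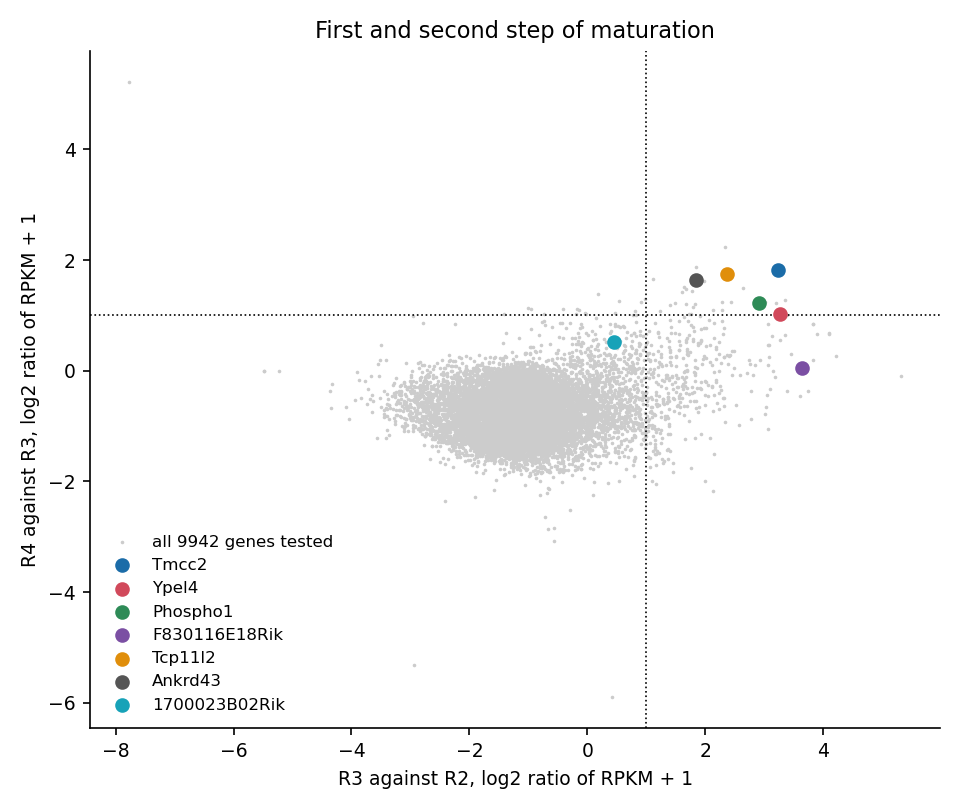
Log2 ratio of RPKM + 1 in R3 against R2 (horizontal axis) and in R4 against R3 (vertical axis) for the 9942 genes with at least 1 RPKM (grey) and the 7 genes (coloured), with dotted lines at 2-fold. Tmcc2, Ypel4, Phospho1, Tcp11l2 and Ankrd43 lie past both lines, F830116E18Rik past the first line only, at 0.05 on the vertical axis, and 1700023B02Rik past neither.

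For each of the 7, the 3 genes with the closest profile were taken from 5590 others with at least 10 RPKM in some population. With 4 populations and 1 library each, such likeness is a description. Slc2a1, which encodes the glucose transporter GLUT1, was among the 3 closest of Tmcc2 (distance 0.60), Ypel4 (0.21) and Phospho1 (0.31), and had 51.1 RPKM (R2), 419 (R3), 999 (R4) and 649 (R5). B230312A22Rik, now Fam214b, was also among the closest of all 3, and E130309D14Rik, now Ccdc92b, was the closest to Ypel4 at 0.13. The closest to Phospho1 was Bcl2l1, at 0.23. The closest to Tcp11l2 was Xpo7, at 0.39, ahead of Grap2 and of Ube2o, which encodes a ubiquitin enzyme that acts in reticulocytes. For Ankrd43 they were Tbcel, the ubiquitin-conjugating enzyme gene Ube2h and 2810453I06Rik, at 0.23 to 0.35. For F830116E18Rik they were Pdzk1ip1, Tinagl1 and Darc, the Duffy antigen gene, at 0.50 to 0.57. For 1700023B02Rik they were Eif5, Top1 and Ppp1cb, at 0.38 to 0.41, which encode a translation factor, a topoisomerase and a phosphatase subunit.

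Most relatives of these genes were near 0. Of the Yippee family, Ypel3 and Ypel5 were, like Ypel4, at least 2-fold higher in R3 than in R2 and highest in R4, while Ypel1 and Ypel2 stayed at or under 0.31 RPKM. Ypel3 had 13.1 RPKM (R2), 67.6 (R3), 146 (R4) and 139 (R5), and kept 95.2% of its R4 level in R5. Ypel5 had 3.39 RPKM (R2), 13.8 (R3), 25.4 (R4) and 15.0 (R5), and reached 54.4% of its R4 level in R3, against 48.9% for Ypel4. In all, 3 of 5 family members were at least 2-fold higher in R4 than in R2, where 3.22% of all genes were. Those 3 were the ones with at least 1 RPKM, and Ypel4 among them was chosen for its rise. With median scaling the count was also 3, where 11.6% of all genes were. Tmcc3 was at or under 0.23 RPKM in every population, Tcp11 and Tcp11l1 at or under 0.25, and Ankrd56, Ankrd57 and Ankrd58, the other members of the Sowah family, at or under 0.37. Tmcc1 was not analysed here.

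**Figure D4:**
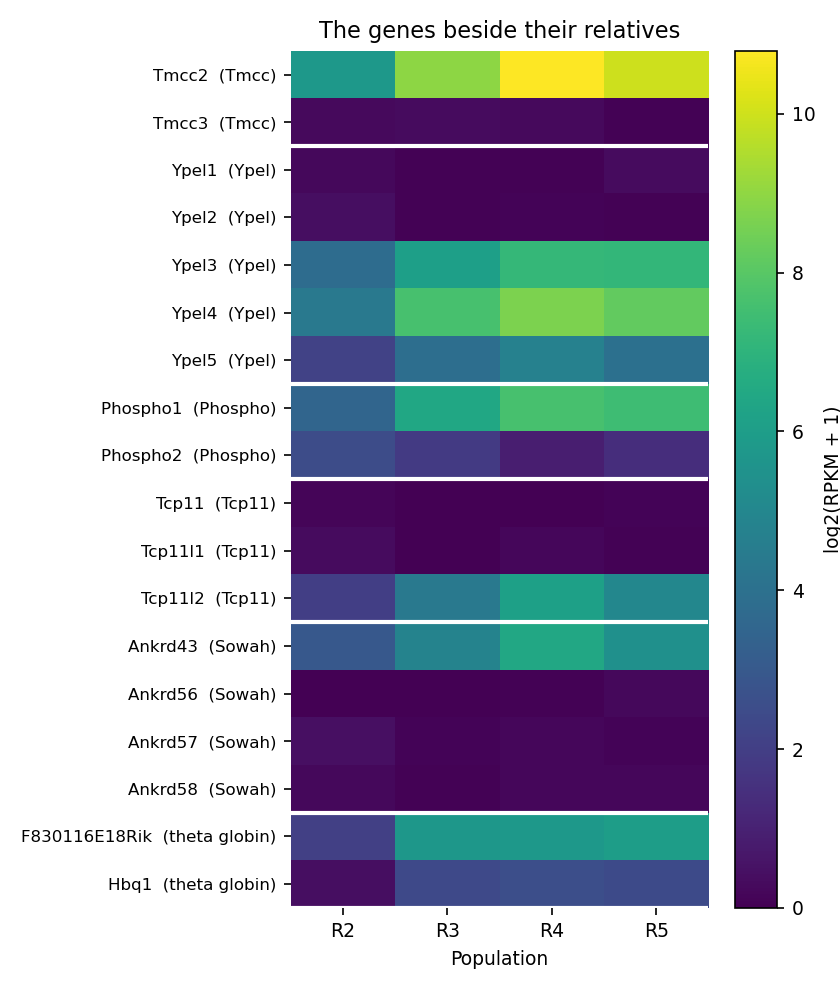
Levels as log2(RPKM + 1) (colour) in R2 to R5 (columns) of the genes and their relatives (rows, family name in brackets, white lines between families). Ypel3, Ypel4 and Ypel5 brighten together toward R4, while the relatives of Tmcc2, Tcp11l2 and Ankrd43 stay dark, at or under 0.37 RPKM.

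Phospho2, the relative of Phospho1, had 4.74 RPKM (R2), 2.53 (R3), 0.86 (R4) and 1.65 (R5), and was thus highest in R2 as deposited. With median scaling it was near level, with log2 ratios of -0.02 in R3, -0.32 in R4 and 0.06 in R5, each against R2. Listed genes of phosphocholine and phosphoethanolamine metabolism and of related lipids were mostly lower in the mature cells as deposited, as most genes were. Of 28 listed, 26 were in the files and 22 had at least 1 RPKM. In R5 against R2, 1 of the 22 was at least 2-fold higher, where 2.74% of all genes were. This was Phospho1 itself, which was chosen for its rise, so the count does not speak for the list. Another 16 were lower, where 76.9% of all genes were. The median log2 ratio of the 22 was -1.42, beside -1.65 over all genes. With median scaling 3 were higher and 0 lower, where 9.42% and 13.7% of all genes were. In R4 against R2, 2 were higher, Phospho1 and Pcyt1b, where 3.22% of all genes were, and 16 lower, where 79.8% were. Pcyt1b, a gene of phosphatidylcholine synthesis, was at 11.3 RPKM in R4 against 5.06 in R2. With median scaling 5 of the 22 were higher and 3 lower, where 11.6% and 24.2% of all genes were. Pcyt2, which acts in phosphatidylethanolamine synthesis, was at 15.6 RPKM in R5 against 55.2 in R2, or -1.76 on the log2 scale (-0.21 after median scaling). Smpd4, a sphingomyelinase gene, was at 9.48 RPKM in R5 against 49.96 in R2, or -2.28 on the log2 scale (-0.75 after median scaling). Ptdss2, a phosphatidylserine synthase gene, was at 62.0 RPKM in R5 against 69.6 in R2, a log2 ratio of -0.16, which was 1.07 with globins removed and 1.41 with median scaling.

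Genes next to the 7 in the genome, the nearest measured protein-coding gene on each side in RefSeq's order, were looked at after the values were seen. The neighbours of F830116E18Rik are the alpha-globin genes, with a log2 ratio of 4.67 in R4 against R2. Of the 12 other neighbours, 0 were at least 2-fold higher in R4 than in R2 as deposited, where 3.22% of all genes were. At that share, 0 of 12 does not set the neighbours apart. With median scaling 3 were, Clp1 at 1.83, Dstyk at 1.57 and Scrn3 at 1.37, where 11.6% of all genes were. With globins removed 2 were, Clp1 at 1.35 and Dstyk at 1.23, where 8.28% were. The following values are as deposited. Nuak2 and Dstyk beside Tmcc2 had log2 ratios of -1.69 and 0.17. Clp1 and Serping1 beside Ypel4 had -0.01 and 0.24, and Zfp652 and Abi3 beside Phospho1 had -2.83 and -2.02. Beside Tcp11l2, Ckap4 was at -3.05 and Polr3b at -1.51. Beside Ankrd43, Shroom1, listed at or under 0.40 RPKM throughout, was at -0.25 and Kif3a at -1.71. Beside 1700023B02Rik, Sp9, at or under 0.59 RPKM, was at 0.19 and Scrn3 at -0.22. Serping1 was low as well, at or under 1.17 RPKM. At such levels the added 1 RPKM keeps the log2 ratio small.

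The scaling of the libraries moved the size of the differences of the 7 genes and, apart from the cases named above, not their direction. The median log2 ratio of all genes in R4 against R2 was -1.90 as deposited, -0.86 with globins removed and -0.50 with each library scaled by the median of gene ratios. The median of the 7 was 4.11, 5.32 and 5.70. Under both rescalings all 7 were at least 2-fold higher in R4 than in R2, 1700023B02Rik included at 2.24 and 2.66, where 8.28% and 11.6% of all genes were. In R5 against R4 the 6 genes other than F830116E18Rik were lower under every scaling, while the all-gene median lay above 0 in each.

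**Figure D5:**
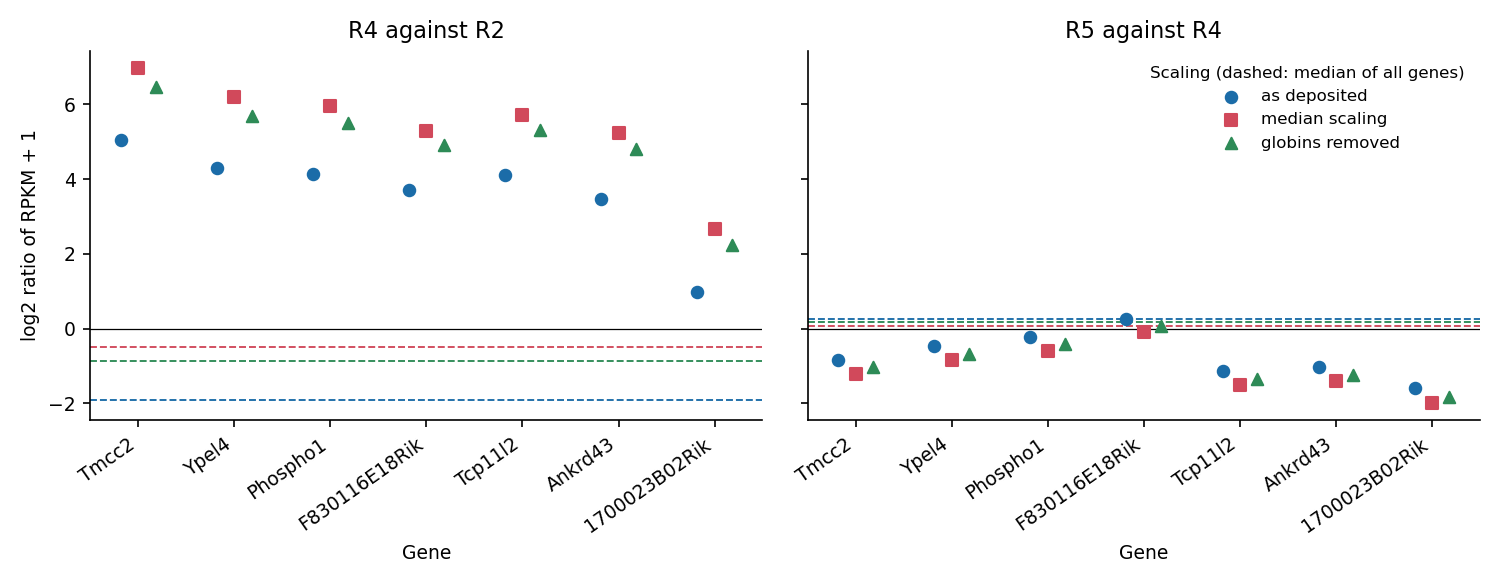
Log2 ratio of RPKM + 1 (vertical axis) of each of the 7 genes (horizontal axis) in R4 against R2 (left) and R5 against R4 (right), for the deposited values, after median scaling and after removal of globins, with dashed lines at the median of all genes. Every point on the left lies above 0, from 0.97 for 1700023B02Rik as deposited to 6.98 for Tmcc2 with median scaling, and on the right only F830116E18Rik has points above 0.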

How the data were processed

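Sorted erythroblasts of 4 stages gave 1 polyA-enriched RNA library each, read on a Solexa instrument, per the labels' protocols. The deposited values are RPKM, made by the authors, with 2 decimals and 1 row per gene symbol. The build was mm9 per the submitters' processing notes. The sources used here name no aligner, counting program or annotation. Depth was worked out from genes whose values were whole multiples of 1 number per library, a number doubled for R3 because 92.0% of its counts over fitted genes (up to 120 bases) were even. Genes that reached 1 RPKM in any library were kept, and log2 ratios of RPKM + 1 taken, called at 2-fold. Reads were estimated from the shortest RefSeq-linked coding transcript (GENCODE), with exact Poisson intervals for levels and exact binomial intervals for ratios, at 95%, for counting error only. The lengths the authors divided by are not given and may be shorter, as for the genes with few countable bases. Fewer counted bases would mean fewer reads and wider intervals. With 1 library per population no test was run. The members and lists were chosen with earlier results of these data known. Named were the 7 genes, their families, the listed erythroid and phospholipid genes, the 3 closest profiles of each gene and the 3 genes around the lowest one, except 1 listed erythroid gene that is not reported here. Symbols (19273 of 19564) were matched to RefSeq for GRCm38.p6, which gave names, neighbours and promoter sequences. The calls were tried on simulated counts drawn from the R2 library. These held no globin shift and no spread between embryos, so such errors were not covered. Python 3.11.15, pandas 2.3.3, SciPy 1.17.1 and Biopython 1.88 were used.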

Additional observations from a re-analysis of the deposited data

How the results depend on the processing

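The alternatives were median scaling, globins removed, pseudocounts of 0.1 and 5 RPKM, no filter and a filter of 5 RPKM. Counts of the 7 genes at least 2-fold higher stayed within 1.5 times of the values given under each. With median scaling 0 of the 7 were highest in R5, against 1 as deposited, and 0 first reached 50% of their highest level in R3, against 2. With globins removed 1 did so. The filters left all counts of the 7 as given. With a pseudocount of 0.1 RPKM all 7 were at least 2-fold higher in R4 than in R2. All 35 log2 ratios of the 7 moved by more than counting error under either rescaling. No paired analysis was possible because each population has 1 library, and for the same reason no library could be left out. Depth limits F830116E18Rik in R2 most, at an estimated 41 reads.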
